A study of Mus musculus with 27 samples.

Results

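The expression of 9 thermogenic adipocyte genes (Ucp1, Ucp2, Ucp3, Cidea, Dio2, Prdm16, Ppargc1b, Adrb3 and Gk) was followed with age in adipose tissue of MlxKO mice, with liver and skeletal muscle as contrast. The genes were chosen by symbol from the 36333 genes with a deposited value, and all 9 were found. The data comprised 27 RNA-seq samples, with 4 mice for each tissue at 5 months and 5 mice at 20 months, all of them male and carrying both Mlx Flox/Flox and, in a B6.129 strain, the Gt(ROSA)26Sortm1(cre/ERT2)Tyj allele. In these mice the tamoxifen-activated Cre is driven by the ubiquitous ROSA26 locus, so that Mlx was deleted body-wide, though not to the same degree in each tissue, and not in adipocytes alone. Every mouse, at either age, had been given tamoxifen at 75 mg/kg on 5 consecutive days after weaning, once it weighed at least 15 g. Wild-type mice were not analysed here, so the comparisons below are of MlxKO mice at both ages, and a change with age that is particular to MlxKO mice cannot be told apart from one that any mouse undergoes. All 3 tissues of the 5-month group came from the same 4 mice, called young mice 1 to 4 here, whose values are always listed in that order. The 20-month tissues bear different sample numbers, which are kept here as mouse numbers, and are listed in ascending order. The labels do not say whether the 20-month tissues share mice, so they were treated as unpaired. The adipose depot is named omental in the sample labels and abdominal in the study. The older group is given as 20 months in the labels and in the text of the study. For samples whose numbers end in the same digits, the supplement of the study lists a slightly younger age. For these and for the young mice it also lists the Mlx expression that remained relative to wild type. At both ages this was highest in skeletal muscle, lower in adipose tissue and lowest in liver. The part of this remaining expression in differences between the tissues was not tested.

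Thermogenic adipocytes, brown or beige, burn fuel to release heat. Noradrenaline binds the β3-adrenergic receptor (Adrb3), cAMP rises, and lipolysis releases fatty acids that are burned in mitochondria and that activate uncoupling protein 1 (Ucp1), which lets protons return to the matrix without making ATP. The programme is set up by regulators such as Prdm16 and the PGC-1 coactivators and is amplified by Dio2, the deiodinase that makes active thyroid hormone inside the cell. Visceral white depots of mice normally hold few such cells.

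A sample held 14384695 to 25673919 reads on genes. Values are given as deposited, which is CPM divided by a further factor for each sample. The 6 adipocyte markers (Adipoq, Lep, Retn, Plin1, Fabp4 and Cfd) summed to 6353 to 13804 in adipose tissue at 5 months and to 7922 to 11591 at 20 months. In liver their sum was 8.91 to 25.6, with Adipoq, Lep, Retn and Plin1 under 3 reads in every sample, and in skeletal muscle it was 287 to 467. The 8 hepatocyte markers summed to 56758 to 170758 in liver and to 3.11 to 255.7 in adipose tissue. The 12 markers of skeletal muscle fibres summed to 158166 to 200937 in skeletal muscle and to 115 to 1002 in adipose tissue. Mlx itself had values of 7.04 to 32.4 over all samples, and these count the whole gene, not only the deleted exons.

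In adipose tissue, Adrb3 fell and Cidea rose from 5 to 20 months, and Ucp1, which was almost silent at 5 months, was higher in every mouse at 20 months. Differences were tested by limma on log2(value + 1) with Benjamini-Hochberg adjustment over all genes that reached a value of 1 in 4 or more of the 9 samples, and a gene was called at an adjusted p under 0.05. Of the 9 members, 8 passed this filter and 2 were called, where 19.1% of all 14005 genes tested were called. Of these 2, 1 was higher at 20 months, against a background of 9.75%, and 1 was lower, against 9.35%. The share of members called is thus near that of all genes. The values of the ages did not overlap for 3 of the 9 members (Ucp1, Cidea and Adrb3), and for 17.4% of the genes tested, which do not include Ucp1. As this is bulk tissue, fewer cells of a type and less RNA per cell cannot be told apart in any of these values.

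**Figure D1:**
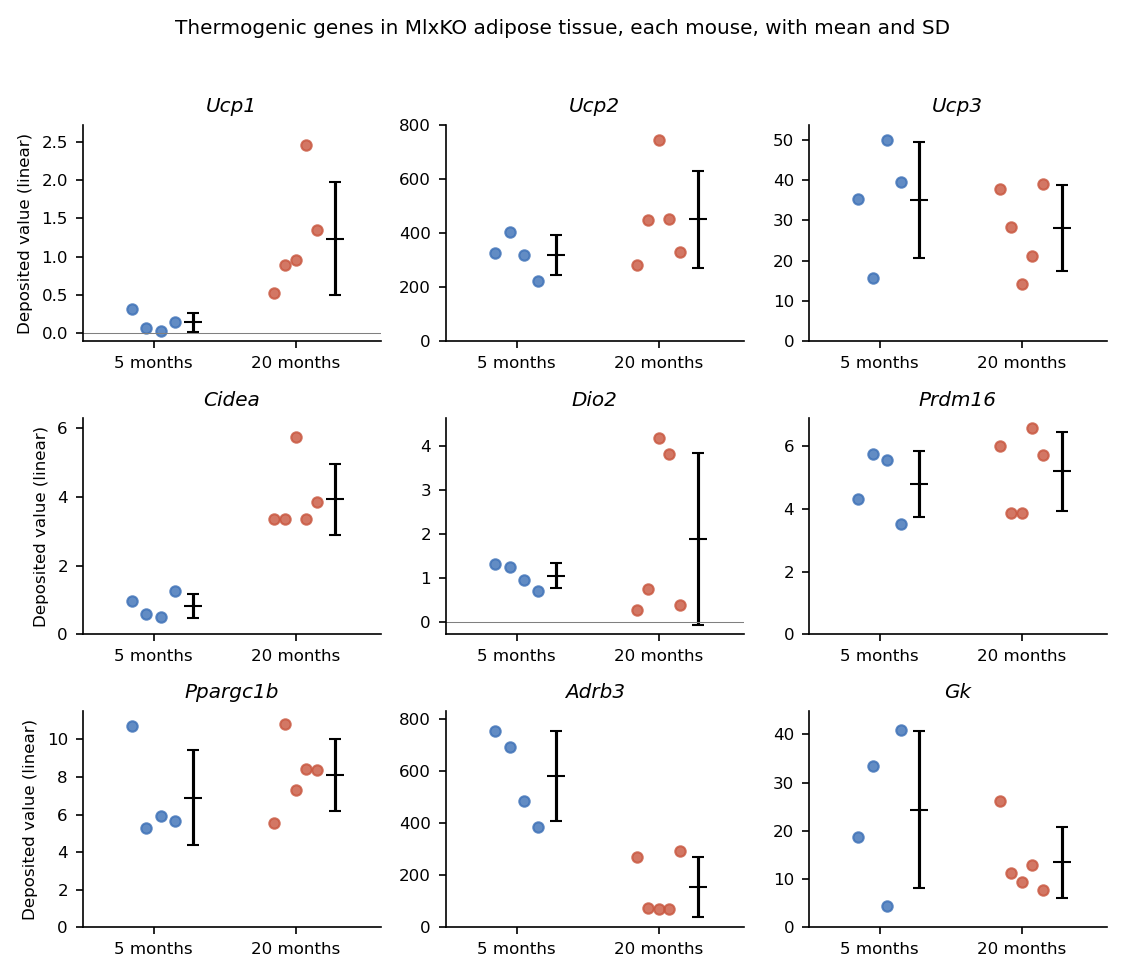
Deposited values (linear axis) of the 9 thermogenic genes in adipose tissue of MlxKO mice. Each point is 1 mouse, 4 at 5 months (blue) and 5 at 20 months (red), and the black bar is the mean with the SD. Ucp1 and Cidea were higher in all 5 mice at 20 months than in any at 5 months, Adrb3 was lower in all 5, and the other 6 genes overlapped between the ages.

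Adrb3 (gene ID 11556; chromosome 8, from 27225776 to 27230845 of GRCm38.p6, where Gm45470 overlaps it) encodes the receptor through which noradrenaline acts on adipocytes. At 5 months its adipose values were 754, 691, 485 and 386. At 20 months they were 268, 75.7, 69.6, 71.6 and 291 in mice 36, 37, 38, 39 and 40. All 5 older mice lay below the lowest young mouse, and mice 37, 38 and 39 lay well below the other two. The mean fell from 579 ± 172 (SD, n = 4) to 155 ± 114 (SD, n = 5), which was 3.73-fold lower. The log2 change was -2.16 (SE 0.49, adjusted p = 0.0246, limma). The call was lost, with the direction kept, without mouse 37 (log2 change -1.98, adjusted p = 0.0544), 38 (-1.95, adjusted p = 0.0513), 39 (-1.96, adjusted p = 0.0575), young mouse 1 (-2.02, adjusted p = 0.0714) or young mouse 2 (-2.06, adjusted p = 0.0655). It held in all 11 alternatives that kept every sample. Over these and the left-out mice the adjusted p of limma, edgeR or DESeq2 was 0.000146 to 0.0714.

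Markers of other cell types differed between the ages as well. The 9 macrophage markers summed to 1152, 3675, 5559, 2808 and 1642 in older mice 36 to 40, against 809 to 1748 at 5 months, so that the 3 mice with the lowest Adrb3 had the highest sums. Of these 9 markers, 2 (Adgre1 and C1qa) rose and 0 fell. The 5 endothelial markers summed to 351 to 672 at 20 months and 567.9 to 1275 at 5 months, and 3 of the 5 fell. All 5 of the 5 B cell markers tested, of 6, rose, with sums of 12.3 to 168.7 at 20 months and 3.25 to 18.03 at 5 months. In older mice 36 to 40 the B cell sums were 105.9, 12.3, 131.7, 43.3 and 168.7. The highest was thus in mouse 40, which had the highest Adrb3 of the older mice. Of the 5 T cell markers tested, of 6, 1 (Cd8a) rose, with sums of 5.76 to 53.1 at 20 months and 6.98 to 13.97 at 5 months. Of the 6 mesothelial markers, 4 fell, with sums of 34.3 to 75.9 at 20 months and 70.2 to 138.7 at 5 months. The 7 exocrine pancreas markers summed to 16.1 to 29.7 at 20 months and 3.21 to 12.3 at 5 months, and the 1 tested (Cela1) rose. Cela1 made up nearly all of these sums, with values of 16.1 to 29.6 and 3.21 to 11.5. Prss2, Ctrb1, Pnlip, Cel and Clps were under 3 reads in every 20-month sample. The part of these cells in the change of Adrb3 was not tested. The adipocyte sums given above overlapped between the ages, but the 6 markers did not all move the same way. Cfd fell by 1.61 on the log2 scale (adjusted p = 0.024, limma) and was the only one called. Retn had a log2 change of -0.95, and Adipoq, Fabp4, Lep and Plin1 of 0.43, 0.12, 2.33 and 1.61.

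The paralog Adrb1, which encodes the β1 receptor, averaged 1.73 ± 1.24 in young (SD, n = 4) and 2.94 ± 0.44 in older adipose tissue (SD, n = 5), with a log2 change of 0.65 (SE 0.29) that was not called (adjusted p = 0.128, limma). Whether this change differs from that of Adrb3 was not tested. Per kilobase of transcript, Adrb3 was at 207 ± 61.7 (SD, n = 4) and 55.6 ± 40.8 (SD, n = 5), above Adrb1 at either age.

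Ucp1 (gene ID 22227; chromosome 8, 83290348 to 83298456) is the uncoupling protein of brown and beige adipocytes and the defining gene of the group. Its adipose values at 5 months were 0.319, 0.0739, 0.0332 and 0.146, from only 10, 2, 1 and 5 reads. At 20 months they were 0.531, 0.895, 0.952, 2.46 and 1.34 in mice 36 to 40, from 18, 23, 32, 105 and 45 reads. Even the lowest older mouse exceeded the highest young mouse, and mouse 39 was the highest of all. The mean was 0.143 ± 0.126 (SD, n = 4) and 1.24 ± 0.74 (SD, n = 5), an 8.65-fold difference between low levels.

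Ucp1 did not pass the filter on low values in adipose tissue, so it was compared by an exact two-sided permutation test over all 126 splits of the 9 mice. The difference on the log2(value + 1) scale was 0.92 (exact permutation p = 0.0159, where 0.00794 is the smallest that 4 against 5 samples allow). Because so small a value is compressed by the added 1, the log2 difference was 2.44 with 0.1 added instead and 3.09 by edgeR on the recovered reads without a filter (adjusted p = 0.0269 over all genes). With 0.1 or 0.5 added the exact permutation p, which is not adjusted for other genes, was 0.00794 and 0.0159. By limma without a filter the p adjusted over all genes was 0.0419. Without mouse 39 the difference was 0.75 (exact permutation p = 0.0286). This p is the smallest that 4 against 4 samples allow, and it was the same without any other older mouse. In liver 0 reads of Ucp1 were found in any of the 9 samples, and in skeletal muscle 1 read in 1 of 9, which is below the limit of 3 reads. Counts of 0 there allow values of up to 0.240 and 0.242, the highest value of 3 reads in a liver and a muscle sample, and these limits cover counting error only.

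Ucp2 and Ucp3 encode carriers of the same family that are not held to be heat producers of brown fat in the way Ucp1 is. They are neighbours on chromosome 7, Ucp3 (gene ID 22229) from 100472991 to 100486432 and Ucp2 (gene ID 22228) from 100493337 to 100499629, with 6904 bases between them. The bases just upstream of these genes are shown with those of Ucp1 because the 3 carriers had very different tissue patterns, described below, and those of Dio2 and Gk because a cAMP-type and an E-box motif, respectively, lie in them. The sequences are the 250 bases before the start that the RefSeq promoter set gives each gene in GRCm38.p6, 5′ to 3′ along the gene. For Ucp2 that start lies downstream of the outermost gene start given above, so the last bases of its window are inside the gene. Capitals mark exact matches, on either strand, to any of 5 motifs. The first is TATAAA, a form of the box that places the start of transcription. The second is TGACG, the core of a cAMP response element. The third is GGGCGG, a box bound by Sp1. The fourth is CCAAT, a box bound by NF-Y. The fifth is CACGTG, the E-box core bound by factors of the Myc and Mlx kind.
Ucp1 (chr8:83290098-83290347, plus strand): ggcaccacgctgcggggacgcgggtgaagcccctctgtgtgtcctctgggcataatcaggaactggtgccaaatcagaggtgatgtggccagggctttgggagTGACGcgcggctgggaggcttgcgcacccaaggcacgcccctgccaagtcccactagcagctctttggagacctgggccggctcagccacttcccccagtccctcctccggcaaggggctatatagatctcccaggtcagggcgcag
Ucp2 (chr7:100493108-100493357, plus strand): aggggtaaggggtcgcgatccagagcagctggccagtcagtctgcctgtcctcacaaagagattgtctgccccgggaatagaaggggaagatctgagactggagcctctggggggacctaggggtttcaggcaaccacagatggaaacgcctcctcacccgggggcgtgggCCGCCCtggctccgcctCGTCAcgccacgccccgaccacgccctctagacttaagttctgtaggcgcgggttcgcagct
Ucp3 (chr7:100472741-100472990, plus strand): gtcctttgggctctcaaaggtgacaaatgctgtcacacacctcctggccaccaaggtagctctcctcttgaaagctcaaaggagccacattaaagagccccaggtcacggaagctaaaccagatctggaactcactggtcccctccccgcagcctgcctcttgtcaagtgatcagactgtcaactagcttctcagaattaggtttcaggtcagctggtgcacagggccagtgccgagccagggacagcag
Dio2 (chr12:90739039-90739288, minus strand): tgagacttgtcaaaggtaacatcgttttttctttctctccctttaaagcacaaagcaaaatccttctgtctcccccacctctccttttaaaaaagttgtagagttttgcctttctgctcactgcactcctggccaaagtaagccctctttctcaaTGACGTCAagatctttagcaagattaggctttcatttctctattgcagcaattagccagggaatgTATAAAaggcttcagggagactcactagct
Gk (chrX:85776820-85777069, minus strand): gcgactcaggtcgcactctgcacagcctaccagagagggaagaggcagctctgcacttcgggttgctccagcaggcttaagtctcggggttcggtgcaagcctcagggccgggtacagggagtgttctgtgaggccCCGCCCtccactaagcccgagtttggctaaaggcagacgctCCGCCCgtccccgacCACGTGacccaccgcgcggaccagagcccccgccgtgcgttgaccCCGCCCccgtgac
A promoter was listed for 6 of the 9 members, these 5 and Prdm16, whose window (154636874 to 154637123 on chromosome 4) lies inside the gene, downstream of its outermost start. TGACG was found in 3 of the 6 (Ucp1, Ucp2 and Dio2) and in 17.8% of all 32851 promoters of this length. In Ucp1 the match began 147 bases before the start, and in Dio2 matches on both strands overlapped in the full palindrome TGACGTCA. CACGTG was found in 1 of the 6, Gk, and in 6.02% of all promoters. GGGCGG was found in 3 of the 6 (Ucp2, Prdm16 and Gk) and in 32.7% of all, CCAAT in 1 (Prdm16) and in 33.8%, and TATAAA in 1 (Dio2) and in 12.4%. The 250 bases before Ucp3 held none of the 5. A match describes the letters in this window and not the binding of a factor.

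Ucp2 was detected in every sample of the 3 tissues. Its adipose values were 327, 403, 319 and 223 at 5 months and 282, 447, 745, 453 and 330 at 20 months. The ages overlapped, and mouse 38, which also had the highest macrophage sum, was the highest. Means of 318 ± 73.9 in the young (SD, n = 4) and 452 ± 180 in the older mice (SD, n = 5) resulted, and the log2 change of 0.45 (SE 0.28) was not called (adjusted p = 0.246, limma).

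Ucp3 in adipose tissue had values of 35.3, 15.7, 49.9 and 39.4 at 5 months and of 37.9, 28.4, 14.2, 21.2 and 39.1 at 20 months. These overlapped almost entirely. The log2 change was -0.29 (SE 0.37) and was not called (adjusted p = 0.570, limma). Ucp3 is best known from skeletal muscle, and the sums of the muscle fibre markers in adipose tissue were 331 to 1002 at 5 months and 115 to 640 at 20 months, with 0 of the 11 tested called. Their part in the adipose values of Ucp3 was not tested.

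Cidea (gene ID 12683; chromosome 18, 67343564 to 67367794, overlapping B430212C06Rik) encodes a lipid droplet protein that is abundant in brown fat. Its adipose values at 5 months were 0.957, 0.591, 0.498 and 1.25. At 20 months they were 3.36, 3.35, 5.74, 3.35 and 3.85 in mice 36 to 40. All older mice were above all young ones, and 4 of the 5 older mice lay close together. The mean rose from 0.824 ± 0.347 (SD, n = 4) to 3.93 ± 1.03 (SD, n = 5), 4.77-fold, with a log2 change of 1.43 (SE 0.19, adjusted p = 0.00757, limma). Cidea was called in each of the 10 alternatives with all samples that tested it and without each mouse in turn, with log2 changes of 1.31 to 2.27 and adjusted p of 2.72e-08 to 0.0282. Its values at 5 months were mostly under 1, so that it passed the filter through the 20-month mice.

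The paralog Cidec, which is listed with the white adipocyte genes and the brown adipocyte output genes below, is a lipid droplet protein of white fat, and it was not called in adipose tissue. The remaining members were not called in adipose tissue. Dio2 (gene ID 13371; chromosome 12, 90724552 to 90739038, overlapping Gm26512) had values of 1.31, 1.26, 0.962 and 0.699 at 5 months and of 0.265, 0.740, 4.19, 3.82 and 0.388 at 20 months. The young mice were alike, whereas older mice 38 and 39 were above every young mouse and mice 36 and 40 below every one. The log2 change was 0.22 (SE 0.45, adjusted p = 0.727, limma).

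Prdm16 (gene ID 70673; chromosome 4, 154316122 to 154637360, overlapping 5930403L14Rik and 3 other predicted genes) encodes the regulator that commits precursors to the brown fate. Its adipose values were 4.31, 5.73, 5.54 and 3.52 at 5 months and 5.98, 3.85, 3.87, 6.56 and 5.71 at 20 months. The ages overlapped over nearly their whole range, and the log2 change was 0.09 (SE 0.19, adjusted p = 0.724, limma). Ppargc1b (gene ID 170826; chromosome 18, 61291445 to 61400756, overlapping Mir378a, Gm46627 and Gm52354) encodes PGC-1β, a coactivator of mitochondrial genes. It had values of 10.7, 5.28, 5.94 and 5.68 at 5 months and of 5.54, 10.8, 7.32, 8.44 and 8.36 at 20 months, again overlapping. Its log2 change was 0.23 (SE 0.22, adjusted p = 0.453, limma).

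The paralog Ppargc1a, which encodes the cold-induced PGC-1α, had adipose values of 13.9, 15.997, 3.12 and 10.1 at 5 months and of 6.78, 2.37, 1.61, 3.35 and 2.45 at 20 months. All but 1 of the young mice, young mouse 3, were above all the older ones. The log2 change of -1.38 (SE 0.44) just missed the threshold (adjusted p = 0.0532, limma). Gk (gene ID 14933; chromosome X, 85701937 to 85776819) encodes glycerol kinase, with which brown adipocytes reuse the glycerol set free by lipolysis. Its adipose values were 18.7, 33.5, 4.45 and 41.0 at 5 months and 26.2, 11.2, 9.34, 12.96 and 7.68 at 20 months. The young mice spanned the whole range of the older ones, and the log2 change of -0.58 (SE 0.57) was not called (adjusted p = 0.453, limma). A share of 0.406% of the 50-base words of Gk transcripts is found in Gk2 and D630033O11Rik as well, and none of the other 8 members shared any.

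Levels of different genes were compared per kilobase of transcript. In adipose tissue at 5 months the order of these length-scaled levels was Adrb3 (207), Ucp2 (79.7), Ucp3 (14.3), Gk (5.75), Ppargc1b (1.89), Cidea (0.739), Prdm16 (0.555), Dio2 (0.182) and Ucp1 (0.0874). Neighbours overlapped over the 4 mice for Ucp3 and Gk, Gk and Ppargc1b, Cidea and Prdm16, and Dio2 and Ucp1. At 20 months the order was Ucp2 (113), Adrb3 (55.6), Ucp3 (11.5), Cidea (3.53), Gk (3.18), Ppargc1b (2.21), Ucp1 (0.756), Prdm16 (0.604) and Dio2 (0.324). Among these, Ucp2 and Adrb3 overlapped over the 5 mice, as did Cidea, Gk and Ppargc1b in turn, and Ucp1, Prdm16 and Dio2 in turn.

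In liver, by the same test, 6 of the 9 members passed the filter and 4 were called, where 19.8% of the 12654 genes tested were called. Of these, 3 rose (Ucp2, Adrb3 and Cidea), against a background of 10% called higher, and 1 fell (Ppargc1b), against 9.79% called lower. This split of all calls, 1269 higher and 1239 lower, became 2203 and 477 when the samples were rescaled without the 20 most abundant genes, which moved the median log2 change of all genes from 0.0011 to 0.16. Under that scaling the log2 changes were 0.97 for Ucp2, 1.69 for Adrb3 and 0.997 for Cidea, all called (adjusted p = 0.00935, 0.00479 and 0.0243, limma), and -0.60 for Ppargc1b, not called. The values of the ages did not overlap for 3 of the 9 members (Ucp2, Adrb3 and Ppargc1b), all of them among the 6 tested, and for 19.1% of the genes tested. The hepatocyte markers summed to 117714 to 170758 at 5 months and to 56758 to 111312 at 20 months, lowest in mouse 74, and 1 of the 8 markers fell. The 9 macrophage markers summed to 219 to 349 at 5 months and to 257 to 870 at 20 months, and 4 of them rose. Of the 5 B cell markers tested, of 6, 4 rose, with sums of 1.31 to 8.24 at 5 months and 7.05 to 15.8 at 20 months. The 1 T cell marker tested rose, with sums of 1.53 to 3.52 and 3.24 to 13.6 over the 6. The 6 mesothelial markers summed to 5.68 to 10.7 at 5 months and 9.62 to 26.6 at 20 months, and 1 of them rose. The 5 endothelial markers summed to 109.7 to 175.9 at 5 months and 94.2 to 123 at 20 months, and 1 of them fell. The 7 exocrine pancreas markers summed to 3.42 to 10.6 at 5 months and 10.5 to 14.9 at 20 months, and Cela1 rose. The other 6 of these markers were under 3 reads in every 20-month liver. The part of all these cell types in the changes of these members was not tested.

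Adrb3 in liver took the direction opposite to adipose tissue. Its values were 8.66, 6.62, 5.20 and 5.28 at 5 months and 12.9, 19.6, 28.5, 21.1 and 21.7 at 20 months. No older liver was as low as any young one. The mean rose 3.22-fold, from 6.44 ± 1.61 (SD, n = 4) to 20.8 ± 5.59 (SD, n = 5), with a log2 change of 1.53 (SE 0.21, adjusted p = 0.00573, limma), and the rise was called in all 11 alternatives with all samples and without each mouse in turn. Of the 6 adipocyte markers, Adipoq, Lep, Retn and Plin1 were under 3 reads in each of these livers, whereas Fabp4 had values of 8.55 to 20.6 at 5 months and of 8.75 to 23.9 at 20 months and Cfd of 0 to 0.285 and of 0.305 to 3.77. The 6 summed to 8.91 to 20.7 at 5 months and to 9.16 to 25.6 at 20 months. The part of adipocytes in the liver values of Adrb3 was not tested.

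Ucp2 in liver had values of 41.9, 63.6, 40.6 and 54.9 at 5 months and of 66.6, 80.8, 97.4, 95.5 and 98.1 at 20 months. The older livers were all above the young, by a small margin in mouse 16. The mean rose 1.75-fold, with a log2 change of 0.80 (SE 0.16, adjusted p = 0.0119, limma), and this too was called in all 11 alternatives and without each mouse.

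Cidea in liver had values of 0.0636, 0, 1.07 and 0.320 at 5 months, from 1, 0, 15 and 4 reads, and of 2.39, 1.75, 1.54, 1.59 and 0.601 at 20 months, from 12 to 47 reads. The ages overlapped through mouse 74 and the young mouse 3. The log2 change was 0.94 (SE 0.27, adjusted p = 0.0351, limma), and Cidea passed the filter through the 20-month livers. It was not called by edgeR (log2 change 2.10, adjusted p = 0.066), by edgeR without a filter (2.07, adjusted p = 0.0772) or after quantile normalization (0.78, adjusted p = 0.101), nor by limma without mouse 17 (0.90, adjusted p = 0.0756), 18 (0.93, adjusted p = 0.0794), 19 (0.93, adjusted p = 0.0687), young mouse 1 (0.84, adjusted p = 0.0878), 2 (0.81, adjusted p = 0.0991) or 4 (0.94, adjusted p = 0.0668).

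Ppargc1b in liver had values of 27.1, 30.0, 15.3 and 15.0 at 5 months and of 14.7, 11.9, 9.81, 12.3 and 11.3 at 20 months. The older livers were all lower, mouse 16 by a narrow margin. The log2 change was -0.76 (SE 0.21, adjusted p = 0.0319, limma). It was not called without a filter (adjusted p = 0.0601), in a fit of all 27 samples (adjusted p = 0.0534) or after rescaling without the 20 most abundant genes (-0.60, adjusted p = 0.0754), nor without mouse 17 (-0.76, adjusted p = 0.0637), 18 (-0.70, adjusted p = 0.0811), 19 (-0.77, adjusted p = 0.0583), young mouse 1 (-0.64, adjusted p = 0.0854) or 2 (-0.59, adjusted p = 0.090).

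Gk was abundant in liver, with values of 362, 358, 371 and 393 at 5 months and of 425, 266, 196, 230 and 178 at 20 months. Mouse 16 was above every young mouse and the other 4 older mice were below all of them. The log2 change of -0.59 (SE 0.21) was not called (adjusted p = 0.0738, limma), and without mouse 16 it was (-0.78, adjusted p = 0.00305). Prdm16 in liver ranged from 1.07 to 1.85 at 5 months and from 0.254 to 1.504 at 20 months, with a log2 change of -0.44 that was not called (adjusted p = 0.163, limma) except after quantile normalization (-0.71, adjusted p = 0.0205) or without mouse 74 (-0.58, adjusted p = 0.0487). Dio2 and Ucp3 were near the detection limit in liver, with at most 3 and 4 reads in a sample.

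In skeletal muscle 7 of the 9 members passed the filter and 1 was called, where 19.3% of the 12720 genes tested were called. The called member, Ucp2, was lower at 20 months, against a background of 10.1% called lower and 9.13% called higher. The 1161 higher and 1290 lower calls became 1732 and 989 when rescaled without the 20 most abundant genes, and Ucp2 was called lower there too. The values of the ages did not overlap for 2 of the 9 members (Ucp2 and Adrb3), and for 17.3% of the genes tested, which do not include Adrb3. Ucp2 had values of 41.5, 67.4, 34.4 and 34.8 at 5 months and of 20.3, 19.1, 15.0, 30.1 and 15.0 at 20 months, all of the latter below the former. The mean fell from 44.5 ± 15.6 (SD, n = 4) to 19.9 ± 6.16 (SD, n = 5), 2.24-fold lower, with a log2 change of -1.11 (SE 0.23, adjusted p = 0.00948, limma). It was called in all 11 alternatives and without each mouse. The macrophage markers moved the same way in muscle, where 4 of the 8 tested, of 9, fell, with sums of 141 to 225 at 5 months and 81.6 to 157 at 20 months, and their part in the fall of Ucp2 was not tested.

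Ucp3 was the most abundant member in skeletal muscle, with values of 721, 474, 813 and 738 at 5 months and of 693, 522, 654, 554 and 556 at 20 months. These overlapped, and the log2 change of -0.18 (SE 0.15) was not called (adjusted p = 0.400, limma). Dio2 had values of 11.5, 12.6, 3.84 and 4.39 at 5 months and of 5.41, 2.39, 2.10, 3.09 and 4.70 at 20 months, so that 2 young mice stood above all others. Its log2 change of -0.90 (SE 0.34) was not called (adjusted p = 0.0777, limma) but was by DESeq2 (-1.22, adjusted p = 0.0180) and by limma without young mouse 3 (-1.16, adjusted p = 0.0243). Ppargc1b had values of 18.3, 7.34, 25.05 and 28.4 at 5 months and of 25.1, 34.0, 38.7, 32.7 and 27.4 at 20 months, overlapping at the top of the young range. Its log2 change of 0.78 (SE 0.30) was called only without young mouse 3 (0.94, adjusted p = 0.0469) or 4 (0.999, adjusted p = 0.0451), and with all mice the adjusted p was 0.0871 (limma).

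The other 3 members tested in skeletal muscle overlapped between the ages and were not called. Cidea ranged from 0.906 to 2.38 at 5 months and from 0.399 to 2.03 at 20 months (log2 change -0.32, adjusted p = 0.354, limma), Prdm16 from 2.997 to 5.72 and from 5.02 to 7.52 (0.42, adjusted p = 0.110, limma), and Gk from 2.65 to 6.45 and from 2.21 to 5.22 (-0.41, adjusted p = 0.238, limma).

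Adrb3 in muscle was low, with values of 1.77, 1.29, 0.235 and 0.836 at 5 months and of 0.130, 0.133, 0.217, 0.0735 and 0 at 20 months. The older muscles, at 0 to 3 reads each, were at or under the detection limit and below all the young ones (exact two-sided permutation p = 0.00794, the smallest possible). The young muscles had 23, 16, 3 and 12 reads. Young mouse 3 and older mouse 58 both had 3 reads, so that their values differed only by the scaling of each sample. Adrb3 did not pass the filter. In limma without a filter its log2 change of -0.81 was called (adjusted p = 0.0363), as was that of -3.13 by edgeR without a filter (adjusted p = 0.0152). The adipocyte markers in these muscles summed to 374 to 467 at 5 months and to 287 to 397 at 20 months, and their part in the muscle values of Adrb3 was not tested.

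**Figure D2:**
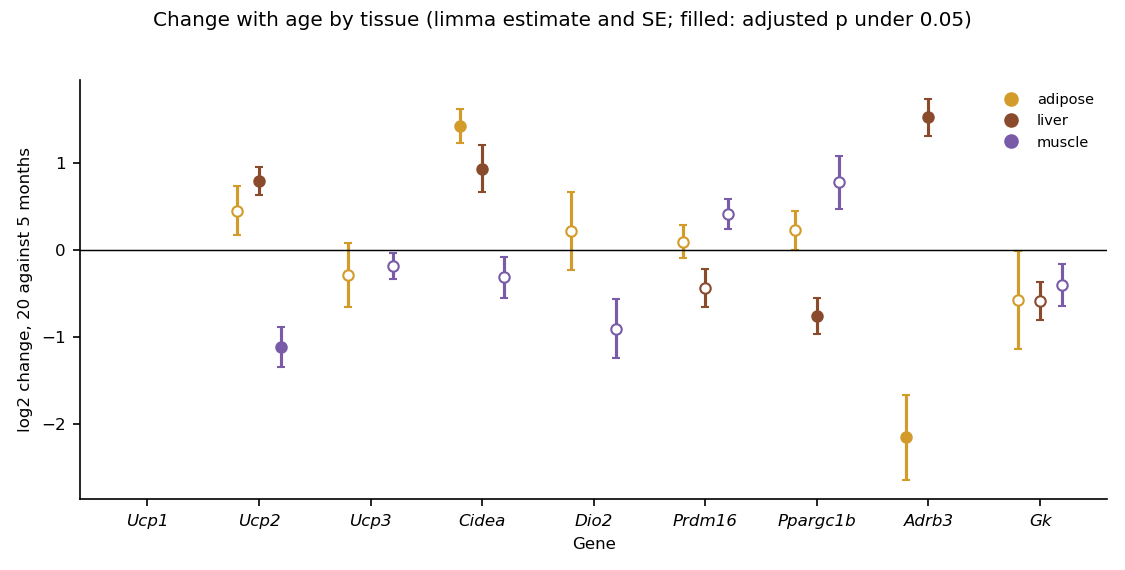
Log2 change from 5 to 20 months (y axis, log2(value + 1) scale) of each thermogenic gene in adipose tissue, liver and skeletal muscle, as limma estimate with its SE. Filled points had an adjusted p under 0.05, and no point is drawn where the gene did not pass the filter, as for Ucp1. Adrb3 fell in adipose tissue (-2.16) and rose in liver (1.53), and Ucp2 rose in liver (0.80) and fell in skeletal muscle (-1.11).

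Whether the change with age differed from tissue to tissue was tested as an interaction in a fit of all 27 samples, in which 8 of the 9 members passed the filter. Between adipose tissue and liver, 1 member was called, where 15.6% of the 15572 genes tested were called. This was Adrb3, whose change in adipose tissue minus that in liver was -3.69 on the log2 scale (SE 0.50, adjusted p = 5.49e-05, limma). It was called in all 5 alternatives and without each of the 27 samples, also where the change within adipose tissue lost its call, with adjusted p of 6.64e-06 to 0.00074. Between adipose tissue and skeletal muscle, 2 members were called, where 14.7% of the genes tested were called. For Cidea the adipose change was higher by 1.75 (SE 0.34, adjusted p = 0.00193, limma), and for Ucp2 it was higher by 1.57 (SE 0.35, adjusted p = 0.00509, limma). Both were called in all 5 alternatives and without each sample. The Cidea changes in adipose tissue and in liver, which were both called, differed by 0.49 (SE 0.34), and this difference was not called (adjusted p = 0.333, limma).

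The tissues themselves differed in most members, as in most genes. In the same fit, adipose tissue against liver gave 7 of 8 members called at 5 months, where 76.4% of genes were called, and 7 of 8 at 20 months, where 74.5% were. Against skeletal muscle, 6 of 8 members were called at 5 months, where 72.8% of genes were, and 7 of 8 at 20 months, where 76% were. With the mouse as a block, 7 of 8 members were called against skeletal muscle at 5 months, Cidea being added (log2 difference -0.55, adjusted p = 0.0433, against 0.0523 without the block). Where most genes are called, such shares single out no property of the members.

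**Figure D3:**
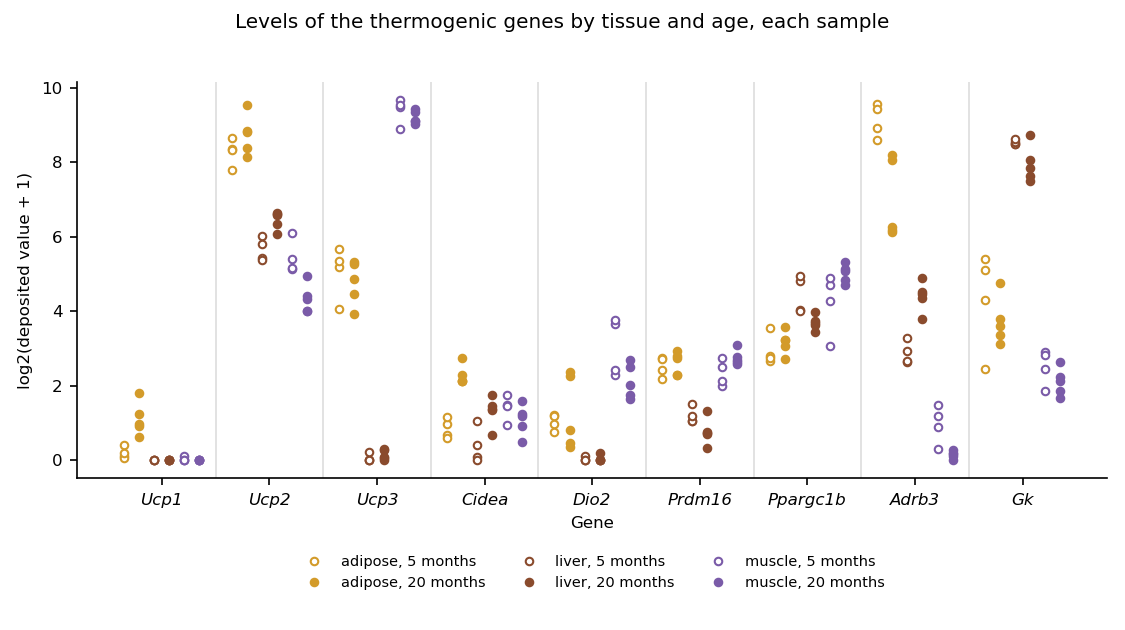
Levels of the 9 thermogenic genes as log2(deposited value + 1) (y axis) in each of the 27 samples, by gene (x axis). Colours give the tissue, open points 5 months and filled points 20 months. Ucp1 was above 0.6 on this scale in the 20-month adipose samples alone, Ucp3 was highest in skeletal muscle, Gk in liver, and Adrb3 and Ucp2 in adipose tissue.

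Each carrier had its own tissue order. Ucp2 was highest in adipose tissue at both ages (318 and 452), and above liver (50.2 and 87.7) by 2.63 and 2.28 on the log2 scale at 5 and 20 months (adjusted p = 1.22e-09 and 2.03e-09, limma). Ucp3 was highest in skeletal muscle (687 and 596), lower in adipose tissue with log2 differences of -4.33 and -4.44 (adjusted p = 1.8e-13 and 6.88e-15, limma), and at or near 0 in liver (0.040 and 0.107). Ucp1 was listed at 0 in every liver and in all but 1 of the muscles.

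Adrb3 was higher in adipose tissue than in liver by 6.26 on the log2 scale at 5 months (adjusted p = 6.91e-14, limma) and by 2.57 at 20 months (adjusted p = 1.54e-07, limma), so that the gap between the tissues was narrower in the older mice, as the interaction above shows. Gk was the member with the highest liver level, with log2 differences of adipose tissue from liver of -4.23 and -4.22 at the ages of 5 and 20 months (adjusted p = 2e-09 and 2.52e-10, limma). Cidea was not called between adipose tissue and liver at 5 months (log2 difference 0.46, SE 0.25, adjusted p = 0.0984, limma), except with a pseudocount of 0.1 (1.55, adjusted p = 0.0132) or without the liver of young mouse 3 (0.68, adjusted p = 0.0177). At 20 months it was higher in adipose tissue than in liver by 0.96 (adjusted p = 0.000496, limma) and than in skeletal muscle by 1.19 (adjusted p = 3.53e-05, limma).

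Dio2 was lower in adipose tissue than in skeletal muscle, with a log2 difference of -1.999 at 5 months (adjusted p = 4.19e-05, limma) and of -0.87 at 20 months (adjusted p = 0.022, limma), the latter call being lost without adipose mouse 36 (-0.64, adjusted p = 0.0864), 37 (-0.76, adjusted p = 0.0584) or 40 (-0.68, adjusted p = 0.0795) or muscle mouse 56 (-0.73, adjusted p = 0.0664) or 60 (-0.77, adjusted p = 0.0557). Prdm16 did not pass the threshold between adipose tissue and skeletal muscle at either age, with log2 differences of 0.17 (SE 0.20) and -0.15 (SE 0.18), and was higher in adipose tissue than in liver by 1.31 and 1.84 (adjusted p = 2.82e-06 and 1.36e-09, limma). Ppargc1b was lower in adipose tissue than in skeletal muscle, with log2 differences of -1.29 and -1.85 (adjusted p = 0.000335 and 5.18e-07, limma).

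Genes around the members were followed by lists of known function, of which Ucp1, Ucp2 and Ucp3 are in the carrier list. In adipose tissue the median log2 change over all genes tested was 0.0072. Of all genes tested, 19.1% were called, 9.75% higher and 9.35% lower, and this is the background for each list below. Of the 20 brown adipocyte output genes, 18 were tested, 3 rose, 0 fell and 15 were not called, with a median log2 change of 0.23. Their share called is thus near that of all genes. The 3 were Otop1, Cpt1b and Cox8b. Otop1, a proton channel that is a known marker of brown fat, rose from 0.0971 ± 0.0229 (SD, n = 4) to 7.69 ± 4.10 (SD, n = 5), with 2 to 4 reads in each young mouse and 45 to 435 in each older one, through which it passed the filter (log2 change 2.78, SE 0.44, adjusted p = 0.0105, limma). Cpt1b, the muscle and brown fat form of the enzyme that admits fatty acids to mitochondria, rose from 3.16 ± 0.85 (SD) to 12.8 ± 6.32 (SD) (log2 change 1.596, adjusted p = 0.0264, limma). Cox8b, a subunit of cytochrome oxidase of brown fat and muscle, rose from 2.66 ± 1.497 (SD) to 9.23 ± 3.33 (SD) (log2 change 1.48, adjusted p = 0.0273, limma). Cpt1b and Cox8b are also muscle genes, and the muscle fibre markers summed to 331 to 1002 at 5 months and to 115 to 640 at 20 months. The part of muscle RNA in their values was not tested.

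**Figure D4:**
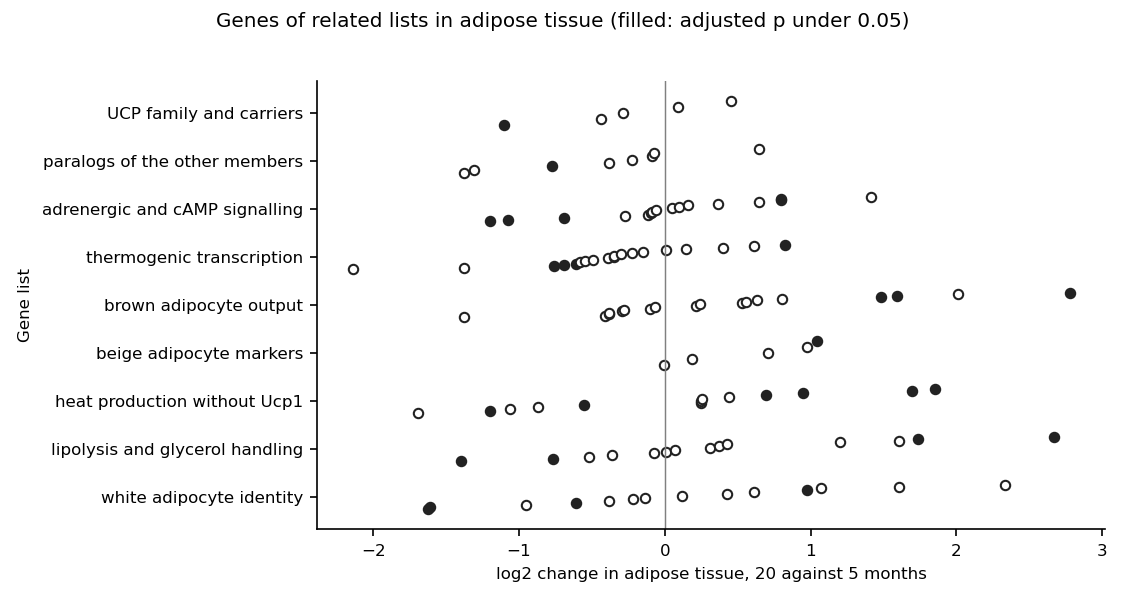
Log2 change from 5 to 20 months in adipose tissue (x axis, log2(value + 1) scale) of each gene tested in 9 lists of related genes (y axis). Each point is 1 gene, spread vertically for view, and filled points had an adjusted p under 0.05. Every list held genes that were not called, and called genes lay on both sides of 0 in 5 of the 9 lists.

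Of the 8 beige adipocyte markers, 5 were tested, 1 rose and 0 fell, with a median log2 change of 0.71. The 1 was Epsti1, an interferon-induced gene that is also used as a beige marker, which rose from 4.75 ± 1.46 (SD, n = 4) to 10.8 ± 2.92 (SD, n = 5) (log2 change 1.04, adjusted p = 0.0246, limma). Of 15 genes of heat production without Ucp1, 13 were tested, 4 rose and 2 fell, with a median of 0.25. Ryr2, a calcium release channel, which passed the filter through the older mice (0.531 to 0.924 at 5 months, 3.33 to 11.2 at 20 months), rose by 1.86 on the log2 scale (adjusted p = 0.00948, limma), Gamt, which makes creatine, by 1.70 (adjusted p = 0.0269, limma), and Pm20d1, which makes N-acyl amino acids, by 0.95 (adjusted p = 0.0396, limma). Alpl, a phosphatase of the creatine cycle, fell by 1.20 (adjusted p = 0.0274, limma).

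The share of genes called was near the background of all genes among those that set up the programme. Of 23 genes of thermogenic transcription, 19 were tested, 1 rose and 3 fell, where 19.1% of all genes were called in either direction, with a median log2 change of -0.35. Esrra, a nuclear receptor that drives mitochondrial genes, rose by 0.82 (adjusted p = 0.0314, limma). Nfia, a factor that opens brown fat enhancers, fell by 0.76 (adjusted p = 0.0194, limma), Tle3, a corepressor that favours white over brown fat, by 0.69 (adjusted p = 0.0165, limma), and Pparg, the master regulator of all adipocytes, by 0.61 (adjusted p = 0.0464, limma).

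Downstream of the receptor, 16 of 17 genes of adrenergic and cAMP signalling were tested, 2 rose and 3 fell, with a median log2 change of -0.0064. Prkaca, the catalytic subunit of protein kinase A, rose by 0.80 (adjusted p = 0.0227, limma) and Adcy3, an adenylyl cyclase, by 0.80 (adjusted p = 0.0264, limma). Pde3b, the phosphodiesterase through which insulin lowers cAMP, fell by 1.20 (adjusted p = 0.0388, limma) and Adcy4, another adenylyl cyclase, by 1.07 (adjusted p = 0.0342, limma). Of 15 genes of lipolysis and glycerol handling, 14 were tested, 2 rose and 2 fell, with a median of 0.19. Dgat2, which completes triglycerides, rose from 53.7 ± 35.5 (SD, n = 4) to 298 ± 113 (SD, n = 5) (log2 change 2.67, adjusted p = 0.020, limma), and Gpd1, which makes glycerol 3-phosphate, rose by 1.74 on the log2 scale (adjusted p = 0.0497, limma). Gpam, the acyltransferase of the first step of glycerolipid synthesis, fell by 1.39 (adjusted p = 0.0211, limma), and Pnpla2, the first lipase of lipolysis, fell by 0.77 (adjusted p = 0.0379, limma).

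All 14 genes of white adipocyte identity were tested, of which 1 rose and 3 fell, with a median log2 change of -0.0092. Agt, angiotensinogen, fell by 1.63 (adjusted p = 0.0292, limma) and Cfd, adipsin, by 1.61 (adjusted p = 0.024, limma), the third being Pparg. Slc2a4, the insulin-regulated glucose transporter, rose by 0.98 (adjusted p = 0.042, limma). Of the 6 carriers, 5 were tested and 1 was called, Slc25a30, a mitochondrial carrier related to the uncoupling proteins, which fell by 1.11 (adjusted p = 0.024, limma). Among 11 paralogs of the other members, 8 were tested and 1 was called, Pprc1, a coactivator related to Ppargc1b, which fell by 0.77 (adjusted p = 0.0259, limma).

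The same lists were counted in the other tissues, where 19.8% of all genes tested were called in liver and 19.3% in skeletal muscle. Of the brown adipocyte output genes, 0 of 13 rose and 3 fell in liver, with a median log2 change of -0.65 beside 0.0011 over all genes, and 1 of 14 rose and 1 fell in skeletal muscle, with a median of 0.015 beside 0.017. Of the genes of adrenergic and cAMP signalling, 0 of 14 rose and 4 fell in liver, and 1 of 16 rose and 1 fell in skeletal muscle. Of those of thermogenic transcription, 2 of 17 rose and 1 fell in liver, and 2 of 22 rose and 5 fell in skeletal muscle.

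The 5 genes whose log2(value + 1) was most like that of Ucp1 over the 9 adipose samples, among 13872 genes, were Cmpk2 (Pearson's r = 0.952, Spearman's rho = 0.867), Slc13a3 (r = 0.950, rho = 0.950), Gpr50 (r = 0.938, rho = 0.917), Gna13 (r = 0.932, rho = 0.900) and Gnptab (r = 0.929, rho = 0.883). Without mice 39 and 40, whose Ucp1 was farthest from the median, r was 0.888, 0.936, 0.882, 0.905 and 0.944. All 5 genes differ in mean between the ages, which raises r over the pooled samples, and they were picked as the highest of many. Cmpk2, a mitochondrial nucleotide kinase induced by interferon, averaged 4.53 ± 0.32 (SD, n = 4) and 6.42 ± 1.03 (SD, n = 5). Slc13a3, a dicarboxylate transporter, averaged 0.733 ± 0.226 (SD) and 2.57 ± 1.15 (SD). Gpr50 averaged 0.246 ± 0.128 (SD) and 4.82 ± 6.40 (SD). It passed the filter on low values through the 20-month mice, in which Ucp1 was higher as well.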

How the data were processed

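RNA was isolated with RNeasy kits, a lipid tissue kit being used for adipose tissue and muscle, and poly-A libraries were made with a directional kit. Per gene, the authors counted reads with CLC Genomics Workbench 23.0, whose strand setting, genome and annotation are not given in the sources used here. The signal the authors deposited, headed CPM, sums to 559419 to 1395315 per sample and was divided by a factor per sample. Reads were recovered from the value of 1 read (100% of values within 0.01 of a whole number). Age was tested within each tissue by limma 3.58.1 (trend) on log2(value + 1), tissues in 1 fit of 27 samples. The design had assumed CPM, and its tests were kept. Alternatives used edgeR 4.0.16 and DESeq2 1.42.0 on recovered reads, other pseudocounts, filters and scalings, and each sample left out. edgeR without a filter was added after seeing the data. Coordinates and promoters are from RefSeq, GRCm38.p6 (9 of 9 members matched by gene ID), and lengths are those of principal transcripts.

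The members and lists were chosen with earlier results of these data known. Named are all members, up to 4 called genes per list with the largest change in adipose tissue and a mean of at least 1, and the 5 genes most like Ucp1. Adrb1, Ppargc1a and Cidec are named as paralogs, outside this rule, and 1 further gene is not reported here. Cell type lists were counted. Same-numbered samples at 5 months are the same mouse (titles), and their deviations correlated by -0.0169 to 0.294. Among 48 same-group pairs, 0 were identical and chi-square per degree of freedom was at least 9.81. On reads simulated with the same spread for every gene, limma recovered 188 of 200 changed genes in adipose tissue with 11 false calls. That spread was not fitted to these data, so the recovery here is not known from it.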

Additional observations from a re-analysis of the deposited data

Results flagged for a closer look

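Among the 46 groups of values with more than 3 reads in a sample, 3 held 1 sample far from the others by Dixon's criterion, which chance alone exceeds in about 1 group in 20. These were Cidea in adipose tissue of mouse 38 at 20 months (5.74), Ppargc1b in adipose tissue of young mouse 1 at 5 months (10.7) and Gk in adipose tissue of mouse 36 at 20 months (26.2). Without these mice the adipose calls of the 3 genes were as with all mice.

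The change with age differed between tissues, by the test of the difference itself (limma interaction), for Adrb3 between adipose tissue and liver (difference -3.69 on the log2 scale, adjusted p = 5.49e-05), and between adipose tissue and skeletal muscle for Ucp2 (1.57, adjusted p = 0.00509) and Cidea (1.75, adjusted p = 0.00193).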

How the results depend on the processing

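With 4 and 5 mice per group, counts of calls depended on single mice. Leaving out 1 mouse at a time gave 1 to 2 members called with age in adipose tissue, 2 to 5 in liver and 1 to 3 in skeletal muscle, with 397 to 3748, 959 to 3557 and 1158 to 3796 genes called overall. For the difference of the age change, leaving out 1 of 27 samples gave 1 to 2 members against liver (Ppargc1b being added without adipose tissue of mouse 36 or young mouse 1 or muscle of young mouse 2) and 2 to 4 against skeletal muscle (Adrb3 being added without adipose tissue of mouse 36, 40 or young mouse 4, and Dio2 without that of 36), with 1511 to 3211 genes called against skeletal muscle. Over these left-out mice the adipose change of Prdm16, near 0, was -0.0164 to 0.177, turning sign without young mouse 4.

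In adipose tissue, 1 member was called among genes with a mean of at least 5, which leaves out Cidea, and the genes called numbered 5270 in a fit of all 27 samples, 4348 by DESeq2 and 1525 without a filter, against 2674. Without a filter, 2 members differed in age change between adipose tissue and liver, as Ucp1 was then tested. In skeletal muscle, 2 members were called by DESeq2, which added Dio2, and 2 without a filter by limma or by edgeR, which added Adrb3, and 1507 genes were called without a filter, against 2451.

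With the replicate block, the same mouse being paired across tissues at 5 months, 1 member differed in age change between adipose tissue and liver and 2 between adipose tissue and skeletal muscle, as without the block, and 2758 and 2549 genes did, against 2424 and 2285. The block changed no call of a member other than that of Cidea given above. Values near 1 read per sample, as for Ucp1 at 5 months, are limited by depth.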
